A study of Mus musculus with 10 samples.

Results

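Complement is a system of plasma proteins, cell-surface regulators and receptors that tags microbes and dying cells and calls in inflammatory cells. The 9 genes described here are the complement components and receptors C1qa, C1qb, C1qc, C3, Cfb, Cfp, Serping1, C3ar1 and C5ar1, taken by symbol from the table of estimated counts. All 9 passed the filter on low counts and are 9 of the 12654 genes tested. They were read in bulk RNA-seq of cultured mouse peritoneal macrophages, in 5 control and 5 ox-LDL libraries. All mice were C57BL/6 and 8 weeks old, and the cells had been drawn into the peritoneal cavity by thioglycollate. The control cultures are labelled untreated. The ox-LDL cultures were given LPS at 100.0 ng/ml as a primer and then oxidized low-density lipoprotein (ox-LDL) at 100.0 µg/ml for 16 h. By these labels LPS was given to the ox-LDL group alone, and the effects of LPS and of ox-LDL then cannot be told apart. The study's own description can also be read as priming with LPS in both groups, and under that reading every fold change would compare primed cells with and without ox-LDL. The sources used here do not settle this, and the labels were followed. The study describes the replicates as biological, without saying which mice or pools of mice gave each culture. In bulk RNA, fewer cells of a type and less RNA per cell cannot be told apart.

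In the classical pathway, C1q, a protein built from the chains of C1qa, C1qb and C1qc, binds antibody complexes and dying cells and switches on the proteases C1r and C1s, which Serping1, the C1 inhibitor, shuts off. In the alternative pathway, C3, the central protein on which all routes converge, is cut by an enzyme formed with factor B (Cfb) and held together by properdin (Cfp). The small fragments C3a and C5a signal through the receptors C3ar1 and C5ar1. Macrophages are a main source of C1q in the body, whereas the liver supplies most plasma C3.

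All 9 genes lie on the minus strand in the GENCODE annotation of NCBIM37, the assembly known as mm9 to which the authors aligned their reads. The C1q genes sit side by side on chromosome 4, in the order C1qb, C1qc and C1qa, within 18675 bases (positions 136436044 to 136454718), with 3616 bases between C1qb and C1qc and 2851 between C1qc and C1qa. C3 is at positions 57343397 to 57367559 and Cfb at 34993319 to 34999463 of chromosome 17. Serping1 is on chromosome 2 (84605544 to 84615601), C3ar1 on chromosome 6 (122797156 to 122806179), C5ar1 on chromosome 7 (16832092 to 16844889) and Cfp on chromosome X (20502580 to 20508681). All are annotated as protein-coding. Cfb is overlapped by the annotated gene Gm20547 and lies 85 bases from C2. The sources used here do not say whether strand was used in counting, so reads of Cfb and Gm20547 may not be fully separated.

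RefSeq promoters of the build GRCm38.p6 were matched for 6 of the 9 genes, namely C1qb, C1qc, C3, Cfp, C3ar1 and C5ar1. The 120 bases before the start are printed, 5′ to 3′ on the gene's own strand, for the gene with the highest count among those that rose (C3), for the receptor that fell (C5ar1) and for a pair of C1q chains, so that neighbours of the same cluster can be compared. Capitals mark matches to a searched motif, and none of these letters was tested for binding.
C3 (chr17:57228137-57228256): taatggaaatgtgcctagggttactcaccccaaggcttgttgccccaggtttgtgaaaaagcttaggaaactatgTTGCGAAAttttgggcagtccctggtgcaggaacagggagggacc
C5ar1 (chr7:16259339-16259458): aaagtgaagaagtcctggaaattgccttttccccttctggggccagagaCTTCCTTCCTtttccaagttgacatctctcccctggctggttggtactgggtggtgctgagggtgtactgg
C1qb (chr4:136886201-136886320): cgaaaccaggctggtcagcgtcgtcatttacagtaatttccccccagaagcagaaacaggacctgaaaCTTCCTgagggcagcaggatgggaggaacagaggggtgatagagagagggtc
C1qc (chr4:136892915-136893034): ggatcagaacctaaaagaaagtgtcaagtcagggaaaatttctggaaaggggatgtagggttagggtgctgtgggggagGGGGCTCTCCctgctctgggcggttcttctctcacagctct

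The motifs were searched on both strands in the 250 bases before the start. The C3 window held a C/EBP site (TTGC, any 2 bases, AA), bound by a family of factors of the acute-phase response, with its first base 45 bases before the start, as did 9.56% of all 32851 promoter windows. The core letters of an ETS site (AGGAAG), the family of the macrophage factor PU.1, were found in the windows of C1qb, C1qc and C5ar1. In C5ar1 a pair of these matches overlapped on the opposite strand, 71 and 67 bases before the start. The ETS letters stood in 29.5% of all windows, so they are common in promoters. The C1qc window held the NF-kB consensus with its first base 41 bases before the start, which 5.00% of all windows also held. The interferon-stimulated response element (GAAA, any 2 bases, GAAA), the STAT site (TTC, any 3 bases, GAA) and the MAF half-site (TGCTGAC) were found in 0 of the 6 windows, against 2.98%, 7.02% and 3.81% of all windows.

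Total counts ranged from 20094647 to 20687289 in control and from 19257131 to 20358017 in ox-LDL libraries. Macrophage marker genes were present in every library. Cd68 was at 1168 to 2097 CPM (counts scaled to a common library total by the TMM method) in control and 1477 to 2684 in ox-LDL libraries. Of the 8 markers listed, Adgre1 (log2 fold change 2.07, edgeR adjusted p = 2.87e-04) and Cd14 (2.24, edgeR adjusted p = 8.46e-04) rose. The others did not pass the test, with Lyz2 (-0.67) and Itgam (-0.78) on the lower side and the rest on the higher side. Libraries also differed in how their counts followed gene length. In control 1, control 4 and ox-LDL 2, short genes were high relative to the group (Spearman correlation across genes with length of -0.597, -0.489 and -0.662), whereas in the other 7 libraries it lay between 0.062 and 0.535. Of the marker lists of other cells, that for mesothelial and stromal cells summed to 16.4 to 55.4 CPM in control and 109 to 161 in ox-LDL libraries, and 3 of its 13 genes (Col1a1, Col1a2 and Dcn) rose. Of these, Dcn was at 9.33 to 38.3 CPM in control and 56.6 to 91.6 CPM in ox-LDL libraries, Col1a2 at 1.93 to 8.47 and 9.59 to 31.3 CPM, and Col1a1 at 1.07 to 4.56 and 8.65 to 29.7 CPM. Pdgfra, a fibroblast receptor, was at 1.11 to 6.65 and 1.28 to 21.0 CPM and did not pass the test (edgeR adjusted p = 0.0805), whereas the mesothelial marker Msln was at most 0.287 CPM and the fibroblast marker Lum at most 0.214 CPM. Col3a1 (log2 fold change 0.60, edgeR adjusted p = 0.320) and Wt1 (0.75, edgeR adjusted p = 0.264) did not pass either. Among genes too low to test, Upk3b was at 0.257 to 0.940 CPM in control and 0 to 0.239 in ox-LDL libraries. Lrrn4 was at 0.1545 to 0.8985 and 0 to 0.3044 CPM, and Krt8, Krt18 and Krt19 overlapped between the groups. The neutrophil list summed to 19.7 to 38.2 and 20.4 to 156 CPM, and the B cell list to 41.2 to 50.6 and 15.8 to 26.7 CPM. The eosinophil and mast cell list summed to 2.95 to 13.5 CPM in control and 0.780 to 5.97 in ox-LDL libraries, and its gene Siglecf fell (log2 fold change -3.32, edgeR adjusted p = 3.17e-04). Lists for T and NK cells, dendritic cells and resident peritoneal macrophages summed to at most 2.83, 4.71 and 69.9 CPM in any library. At such low levels, Timd4 of the resident macrophage list (log2 fold change 3.22, edgeR adjusted p = 0.00161) and Clec9a of the dendritic cell list (2.33, edgeR adjusted p = 0.00283) rose. In the neutrophil list S100a8 rose (2.76, edgeR adjusted p = 0.00310), and in the B cell list Cd22 fell (-1.18, edgeR adjusted p = 5.32e-04).

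Of the 9 complement genes, C3, Cfb and Serping1 rose in ox-LDL-treated macrophages and C5ar1 fell, while C1qa, C1qb, C1qc, Cfp and C3ar1 did not pass the test. A gene was called when the adjusted p of edgeR's quasi-likelihood test, with Benjamini-Hochberg adjustment over all genes tested, was below 0.01. The 3 genes that rose stand beside 9.4% of all genes tested that were higher by this rule, and the 1 that fell beside 5.35% that were lower. All 4 also had an absolute log2 fold change above 2, a rule met by 4.78% of genes upward and 1.93% downward. On the log2(FPKM + 1) scale with limma, 3 of them did, since Serping1 was at 1.59 there. The 4 called genes were also the only members whose groups did not overlap, a pattern found in 11.6% of genes tested in the higher and 9.11% in the lower direction. The median log2 fold change was -0.54 over the 9 genes and 0.0966 over all genes tested. By part of the pathway, 1 of 4 classical genes rose, 2 of 3 alternative genes rose and 1 of 2 receptors fell.

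**Figure D1:**
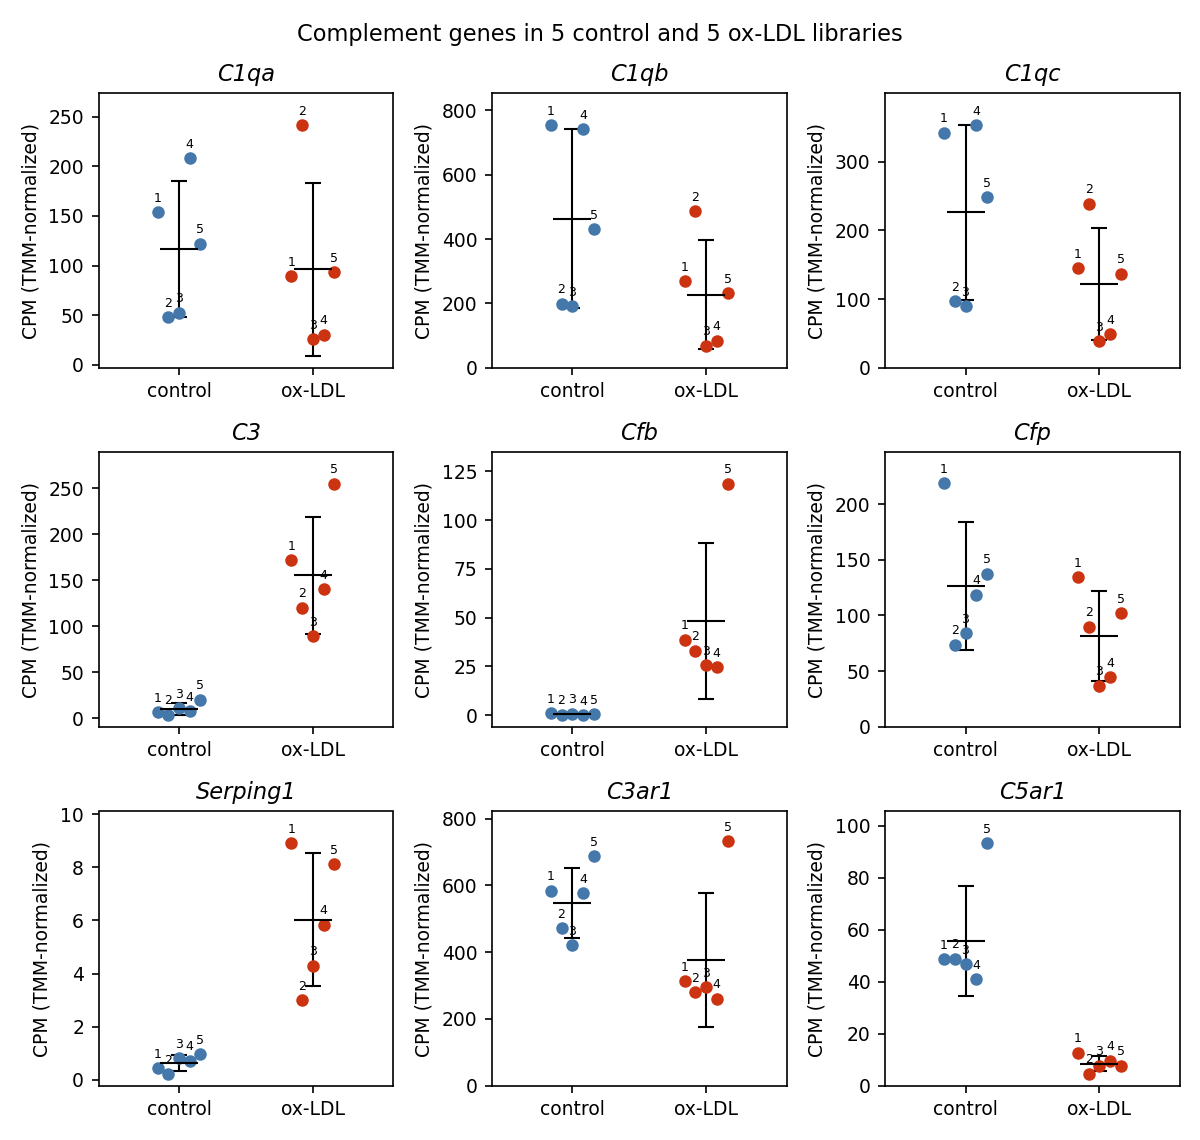
TMM-normalized counts (CPM, linear axis) of the 9 complement genes in the 5 control (blue) and 5 ox-LDL (red) libraries. Points are libraries with their replicate number, and the black line and bar are the mean and SD. C3, Cfb and Serping1 were higher and C5ar1 lower in every ox-LDL library than in every control, and the groups of the other 5 genes overlapped.

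The classical pathway genes were led by the C1q chains. Per length, on the scale of the deposited FPKM, C1qb was the highest of the 9 genes in both groups, with a median of 530.3 in control and 208 in ox-LDL libraries. C1qc had a median of 305 and 124 FPKM, and C1qa of 146 and 82.0. Within each of the 10 libraries the order C1qb, C1qc, C1qa was kept, although their ranges over libraries overlapped.

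C1qb, the B chain, stood at 755, 198, 191, 742 and 432 CPM in control 1 to 5 and at 268, 487, 67.8, 83.2 and 231 CPM in ox-LDL 1 to 5. The lowest values, in ox-LDL 3 and 4, were below every control, but the other 3 ox-LDL libraries lay within the control range. The log2 fold change was -1.03 (SE 0.57) and the edgeR adjusted p 0.211. C1qc, the C chain, was at 342, 97.1, 89.5, 354 and 248 CPM in control and 145, 239, 38.8, 48.6 and 137 CPM in ox-LDL libraries. It followed the same libraries, with a log2 fold change of -0.90 (SE 0.54, edgeR adjusted p = 0.247).

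C1qa, the A chain, was at 154, 48.1, 52.3, 208 and 122 CPM in control and 89.6, 241, 25.7, 30.4 and 93.2 CPM in ox-LDL libraries. In CPM its highest and lowest values both came from ox-LDL libraries, 2 and 3. In FPKM the lowest was again ox-LDL 3, but the highest was control 4 (213, against 148 in ox-LDL 2). The log2 fold change was -0.28 (SE 0.60) with an edgeR adjusted p of 0.773, and it was 0.022 when control 4 was left out, so no direction can be given. Without ox-LDL 2, the log2 fold change was -1.01 for C1qa, -1.56 for C1qb and -1.34 for C1qc, with edgeR adjusted p-values of 0.145, 0.0428 and 0.0660, still short of 0.01.

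The spread of the C1q chains within a group was shared among them. Their log2 deviations from the group means correlated at 0.98 to 0.99 over the 10 libraries, which share depth and composition, so this is given as a description. The same deviations correlated with the libraries' length trend at -0.862 for C1qa, -0.867 for C1qb and -0.832 for C1qc. The chains are short transcripts, with lengths behind the FPKM of 918 to 940 bases. Control 1, control 4 and ox-LDL 2, in which short genes were high, gave the highest CPM of all 3 chains in their groups. For ox-LDL 2 this depends on the scale, as its TMM factor of 0.593 was the lowest of the 10 libraries. In FPKM, ox-LDL 1 was above ox-LDL 2 for C1qb (343 against 305) and C1qc (186 against 151), though not for C1qa (112 against 148). Among controls, C1qa in FPKM was about level in control 5 and control 1 (147 and 146). With the length trend removed from the counts, the log2 fold changes were -0.36, -0.99 and -0.83 for C1qa, C1qb and C1qc, and none passed the test (edgeR adjusted p = 0.544, 0.0873 and 0.141). Without the 3 libraries they were -0.35, -0.79 and -0.69.

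The shares of C1qa and C1qb in the summed C1q FPKM differed between the groups, and that of C1qc overlapped. C1qa made up 12.0%, 13.7%, 15.4%, 15.7% and 14.95% of the sum in control 1 to 5, and 17.5%, 24.5%, 19.0%, 18.4% and 19.8% in ox-LDL 1 to 5. The lowest ox-LDL share was above the highest control share, with means of 14.4% ± 1.49 and 19.8% ± 2.76 (SD, n = 5 each). C1qb took 54.0% to 60.5% in control and 50.2% to 53.5% in ox-LDL libraries, also without overlap. C1qc took 27.0% to 31.0% and 25.0% to 30.3%, which overlapped. The shares of a library add up to the whole, so the lower C1qb share is not a result separate from the higher C1qa share. How often such shares of other genes fail to overlap was not examined. The ox-LDL 2 library had the highest C1qa share and is among those with short genes high, while the other 4 ox-LDL libraries alone ranged from 17.5% to 19.8%. No p-value is given for these shares, since the genes were chosen with earlier results known.

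**Figure D2:**
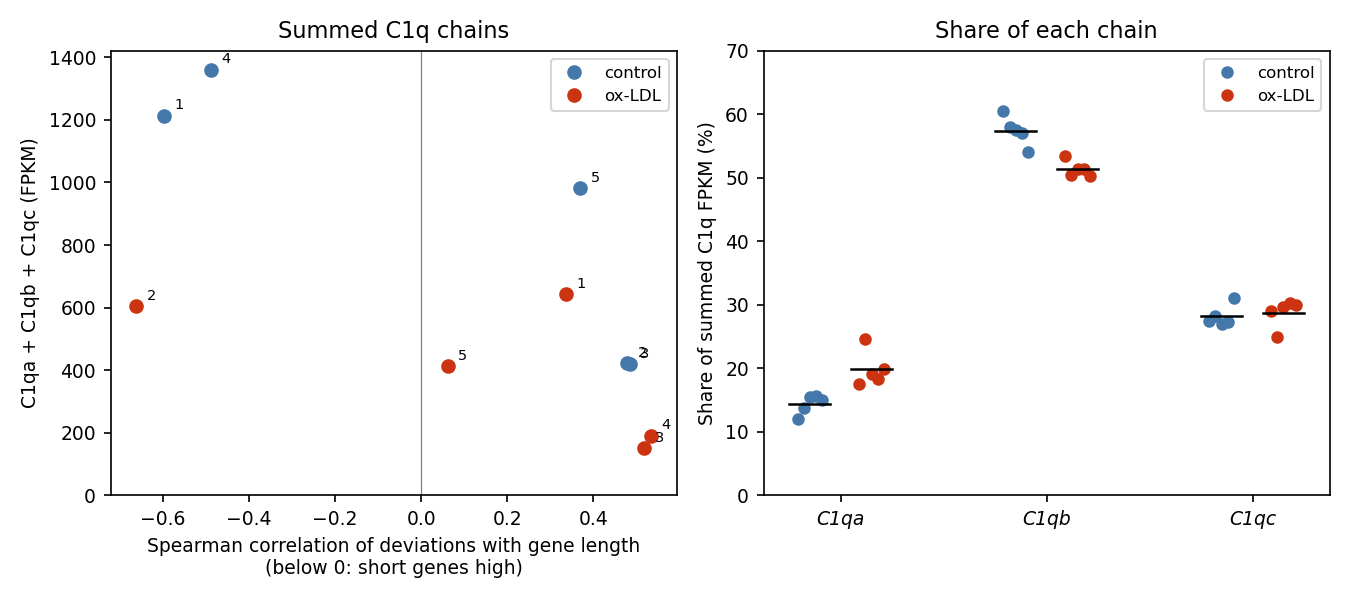
Left, summed FPKM of C1qa, C1qb and C1qc (linear axis) against each library's Spearman correlation of expression deviations with gene length, where values below 0 mean that short genes were high. Right, each chain's share of that sum in percent, with points for libraries and lines for group means. Control 1 and 4 and ox-LDL 2 lie left of 0, and the C1qa shares of the groups do not overlap (12.0% to 15.7% in control, 17.5% to 24.5% in ox-LDL).

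Serping1, which encodes the C1 inhibitor and also restrains contact-system proteases, was the classical part's gene that rose. It stood at 0.443, 0.214, 0.813, 0.721 and 0.956 CPM in control libraries, where it was counted 5 to 22 times, and at 8.91, 3.00, 4.29, 5.84 and 8.12 CPM in ox-LDL libraries. The lowest ox-LDL library was above the highest control. The mean went from 0.629 ± 0.298 to 6.03 ± 2.50 CPM (SD, n = 5 each), a ratio of fitted levels of 9.51, with a log2 fold change of 3.25 (SE 0.44, edgeR adjusted p = 2.65e-04). On the log2(FPKM + 1) scale the difference was 1.59 (limma adjusted p = 0.00113), below the fold cutoff. Its level stayed low per length, at a median of 0.420 FPKM in control and 3.81 in ox-LDL libraries. Fibroblasts also express Serping1 and C3. The summed CPM of the mesothelial and stromal list was higher in the same libraries (16.4 to 55.4 against 109 to 161). Only 3 of its 13 genes (Col1a1, Col1a2 and Dcn) rose. The part of stromal cells in the result was not tested.

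In the alternative pathway, C3 and Cfb rose from low levels and Cfp did not pass the test. C3 was at 6.31, 3.72, 11.1, 7.52 and 19.98 CPM in control 1 to 5 and at 172, 120.2, 88.9, 140.0 and 255 CPM in ox-LDL 1 to 5. Every ox-LDL library exceeded every control by a wide margin, the closest being ox-LDL 3 and control 5. The mean rose from 9.73 ± 6.32 to 155 ± 63.4 CPM (SD, n = 5 each), with a log2 fold change of 3.99 (SE 0.47, edgeR adjusted p = 1.12e-04), which is a fold of 15.9. The rise of C3 stood beside that of the stromal genes Col1a1, Col1a2 and Dcn, and the part of stromal cells in it was not tested.

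Cfb, whose product supplies the enzyme that cuts C3 in the alternative pathway, was nearly silent in control cells. It was at 0.885, 0.257, 0.813, 0 and 0.304 CPM in control libraries, from 0 to 19 counts per library, and at 38.7, 33.1, 25.6, 24.6 and 119 CPM in ox-LDL libraries. The ox-LDL 5 library was far above the other 4, which lay close together, and all 5 exceeded the controls. The mean was 0.452 ± 0.381 CPM in control and 48.1 ± 39.9 in ox-LDL libraries (SD, n = 5 each), and the log2 fold change was 6.72 (SE 0.74, edgeR adjusted p = 7.44e-05), the largest of the 9 genes. Without ox-LDL 5 it was 6.06. Because control counts were this few, its size depends on how low values are handled, and on the log2(FPKM + 1) scale the difference was 3.62.

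Cfp, which encodes properdin, which stabilizes the alternative pathway's C3-cutting enzyme, was at 219, 73.6, 83.9, 119 and 137 CPM in control and at 134, 89.7, 36.6, 44.5 and 102 CPM in ox-LDL libraries. The groups overlapped, with ox-LDL 3 and 4 below every control. The log2 fold change was -0.64 (SE 0.39, edgeR adjusted p = 0.258). Its deviations within groups followed the C1q chains (0.77 to 0.86 over the 10 libraries) and, less closely, the length trend (-0.589).

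Set against each other per length, C3 drew close to Cfp in ox-LDL libraries. In control libraries C3 was 0.01004 to 0.0539 times the FPKM of Cfp, and in ox-LDL libraries it was 0.464 to 1.299 times. C3 was above Cfp in ox-LDL 4 and below it in the other 4, although the group median of C3 was the higher (41.7 against 34.9 FPKM). Cfb, at a median of 0.130 FPKM in control and 9.62 in ox-LDL libraries, went from last of the 9 genes to above Serping1 and C5ar1. Against the mean of the C1q chains, C3 was at 0.326 to 2.37 per 100 in control and 8.63 to 65.6 per 100 in ox-LDL libraries.

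The receptors moved unequally. C5ar1, the receptor by which C5a draws and activates myeloid cells, was at 48.7, 48.8, 46.6, 40.8 and 93.2 CPM in control 1 to 5 and at 12.7, 4.62, 7.66, 9.66 and 7.70 CPM in ox-LDL 1 to 5. The control 5 library was high, and every ox-LDL library was below the lowest control. The mean fell from 55.6 ± 21.3 to 8.46 ± 2.96 CPM (SD, n = 5 each), 6.55-fold lower in ox-LDL, with a log2 fold change of -2.71 (SE 0.31, edgeR adjusted p = 8.82e-05).

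C3ar1, the receptor for C3a, was at 584, 471, 421, 577 and 688 CPM in control and at 313, 279.9, 296, 260.5 and 733 CPM in ox-LDL libraries. In 4 ox-LDL libraries it was below every control, and in ox-LDL 5 it was above every control. The log2 fold change was -0.54 (SE 0.31, edgeR adjusted p = 0.228). Without ox-LDL 5 it was -0.94, with an edgeR adjusted p of 0.0104, still above 0.01. In CPM the same library was the highest for Cfb, C3 and C3ar1. In FPKM this held for Cfb, but C3 was slightly higher in ox-LDL 1 (48.5 against 47.6). C3ar1 in FPKM was higher in control 5 than in ox-LDL 5 (194 against 148).

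C5ar1 was at 12.0 to 23.2 FPKM per 100 FPKM of C3ar1 in control libraries and at 1.81 to 6.89 in ox-LDL libraries, so the ranges of this ratio did not overlap. The 2 receptors thus stood at 23.1 (C5ar1) and 133 (C3ar1) median FPKM in control and at 3.39 and 77.4 in ox-LDL libraries. The ratio is a description with no p.

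**Figure D3:**
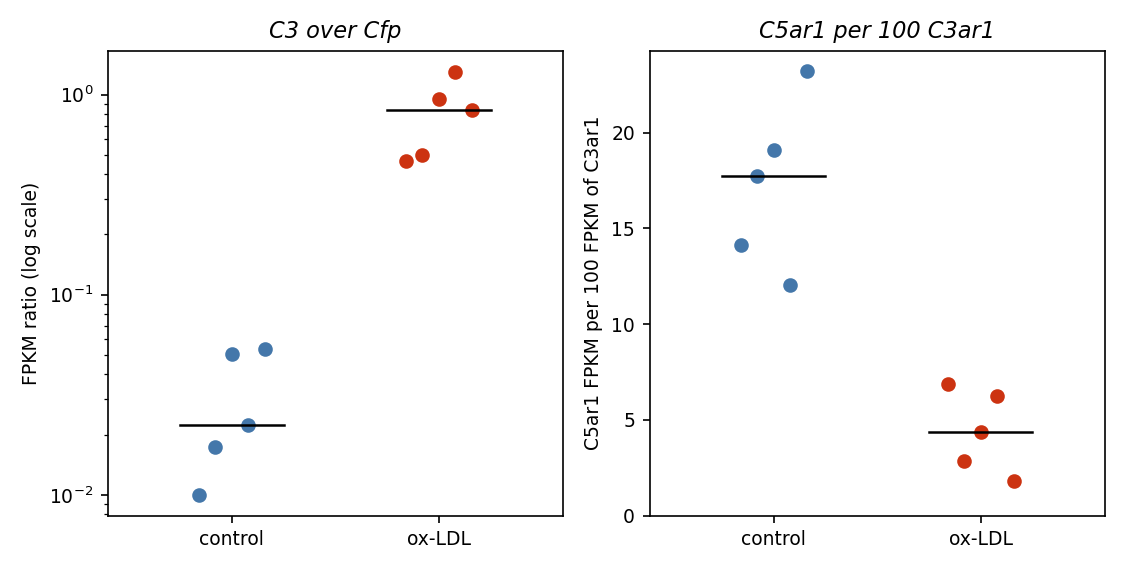
FPKM ratios in each library (points) with the group median (line). Left, C3 over Cfp on a log axis, and right, C5ar1 per 100 FPKM of C3ar1 on a linear axis. C3 over Cfp ranged over 0.01004 to 0.0539 in control and 0.464 to 1.299 in ox-LDL libraries, and C5ar1 per 100 C3ar1 over 12.0 to 23.2 and 1.81 to 6.89.

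Ranked per length in control libraries, the order of medians was C1qb, C1qc, C1qa, C3ar1, Cfp, C5ar1, C3, Serping1 and Cfb. The ranges of neighbours overlapped down to Cfp and again between Serping1 and Cfb, while Cfp stood apart from C5ar1, C5ar1 from C3 and C3 from Serping1. In ox-LDL libraries the order was C1qb, C1qc, C1qa, C3ar1, C3, Cfp, Cfb, Serping1 and C5ar1. There the ranges of neighbours overlapped except between Cfb (6.90 to 36.1 FPKM) and Serping1 (1.04 to 6.23 FPKM). C5ar1 thus changed from the sixth place to the last. Within groups, the deviations of C3 and Serping1 correlated at 0.73 and those of Cfb and C3ar1 at 0.77 over the 10 libraries, given as descriptions.

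Another 49 complement genes were listed, of which 39 were in the table and 20 passed the filter on low counts. Among the 20, 3 rose, 4 fell and 13 did not pass the test, with a median log2 fold change of -0.10, beside 9.4% higher and 5.35% lower among all genes tested. In the classical and lectin pathways, 5 were tested. C1ra and C1s1, the proteases that C1q carries and Serping1 inhibits, rose. C1ra was at 2.39 to 3.68 CPM in control and 17.6 to 40.4 CPM in ox-LDL libraries (log2 fold change 3.07, SE 0.25, edgeR adjusted p = 1.45e-05), and C1s1 at 0.342 to 4.17 and 9.25 to 18.6 CPM (2.41, SE 0.48, edgeR adjusted p = 0.00312). Neither gene's groups overlapped. C1ra and C1s1 have close copies and overlap the annotated gene C1rb, so their counts are uncertain. They too rose beside Col1a1, Col1a2 and Dcn, and the part of stromal cells was not tested. The other 3 tested genes of these pathways did not pass. None of the 5 alternative and terminal genes in the table passed the filter on low counts, and C2, Cfd, C8a and C8b were among 10 listed genes not analysed here.

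Of 7 tested regulators, 1 rose and 2 fell. Clu, the fluid-phase inhibitor clusterin, rose (log2 fold change 2.42, SE 0.53, edgeR adjusted p = 0.00539). Cd59a, which blocks the membrane attack complex, fell, with overlapping groups of 3.61 to 14.8 and 0.836 to 4.39 CPM (-2.14, SE 0.48, edgeR adjusted p = 0.00637) and shares sequence with Cd59b. Without the 3 libraries in which short genes were high, C1s1, Clu and Cd59a were among those that no longer passed the test (edgeR adjusted p = 0.0212, 0.0199 and 0.0604), with log2 fold changes of 2.50, 2.72 and -1.59. In the same comparison the 4 members remained called, with log2 fold changes of 3.78 for C3, 6.76 for Cfb, 3.31 for Serping1 and -2.78 for C5ar1.

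Of 8 other receptors tested, C5ar2 and Cd93 fell. C5ar2, the second C5a receptor, which lies 2588 bases from C5ar1, was counted 33, 48, 31, 47 and 130 times in control and 3, 2, 6, 3 and 1 times in ox-LDL libraries (log2 fold change -4.00, SE 0.53, edgeR adjusted p = 2.43e-04). Both C5a receptors were therefore lower in all 5 ox-LDL libraries than in any control, and both were highest in control 5. Siglecf fell as well, and the eosinophil and mast cell list summed to 2.95 to 13.5 CPM in control and 0.780 to 5.97 in ox-LDL libraries, with overlap. Their part in the fall of the C5a receptors was not tested. Cd93, a surface protein once described as a C1q receptor, was at 121 to 365 CPM in control and 32.3 to 92.1 CPM in ox-LDL libraries (-2.26, SE 0.37, edgeR adjusted p = 9.28e-04). The other 6 receptors did not pass.

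**Figure D4:**
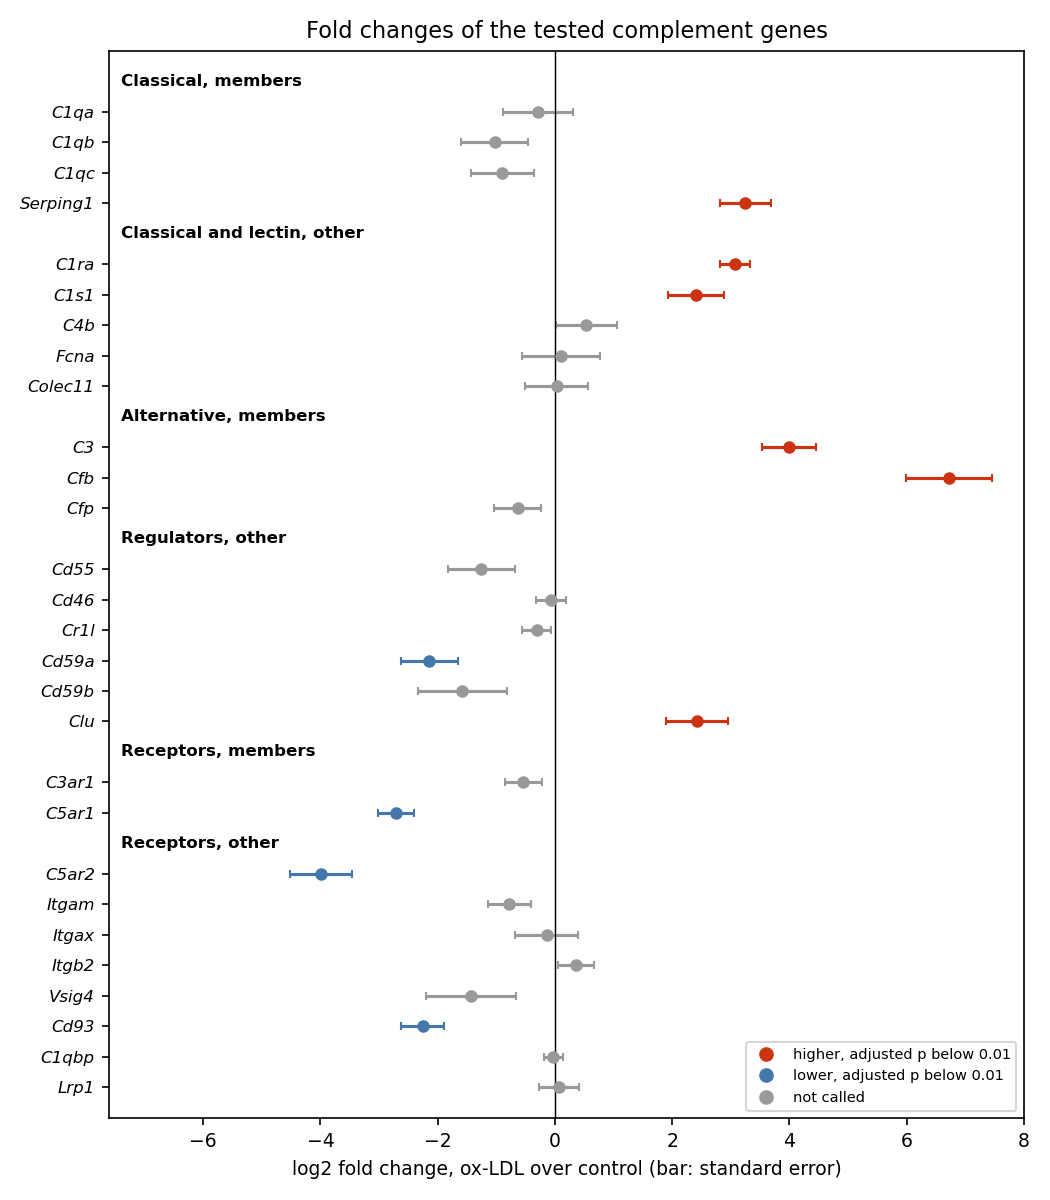
Log2 fold change of ox-LDL over control with its standard error for the 9 complement genes and the other complement genes tested, apart from 1 not reported here, grouped by their part in the pathway. Red points rose and blue points fell at the 0.01 threshold on the adjusted p, and grey points did not pass. Cfb (6.72) lies farthest to the right and C5ar2 (-4.00) farthest to the left.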

How the data were processed

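Bulk RNA-seq of 5 control and 5 ox-LDL cultures was analysed. Per the labels and the methods, alignment by the authors was to mm9 (HISAT2 2.0.5), with SAMtools 1.4 for sorting and StringTie 1.3.3.13 for assembly. The authors deposited an estimated count per gene, of which 13.6% of values were not whole, and a value that was treated as FPKM, since its unit is not named but it scales with count, depth and a fixed length per gene. The counting tool is not given in the sources used here. Estimated counts were rounded, 9788 of 39488 rows (circular RNAs) were left out, and symbols were taken from the RefSeq table of GRCm38.p6. Genes kept by filterByExpr were normalized by TMM and tested with edgeR 4.0.16 (quasi-likelihood, robust, R 4.3.3), with a biological coefficient of variation of 37.3%. CPM are TMM-normalized. Levels between genes were compared in FPKM, and the length trend printed per library is the correlation of its deviations from the group mean with gene length. For its removal, a smooth curve on log2 gene length was fitted in each library and entered as an offset. That curve used deviations from the mean of all 10 libraries, so it can also take out differences between the groups that follow length. DESeq2 1.42.0, limma 3.58.1, other scalings, filters and thresholds, the replicate block and each library left out were alternatives. Leaving out the 3 libraries in which short genes were high was chosen after seeing the data. The procedures were tested on simulated data. Named were all members, every other complement gene called, and for C1qa, C3 and C5ar1 the 4 genes most like them. The members and lists were chosen with earlier results of these data known. Depth limits precision for Cfb, Serping1 and C5ar2. Values of some single genes that the rule names are not reported here. Promoters of C1qa, Cfb and Serping1 were not analysed here.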

Additional observations from a re-analysis of the deposited data

Results flagged for a closer look

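In 7 of 32 groups of 5 libraries examined, of the complement genes named, 1 library stood apart from the other 4, by a gap to the nearest library of more than 0.71 of the group's range. For independent, normally distributed values chance flags about 1 in 20 groups, or 1.6 of 32. The values here were CPM on a linear scale, from genes that share the same libraries. The count of 7 is therefore not a measured excess over chance. In the ox-LDL group, ox-LDL 5 was apart for Cfb at 118.7 CPM, against 38.66 in the nearest library (a gap of 0.851 of the range), and for C3ar1 at 732.9 against 313.4 CPM (0.888). Ox-LDL 1 was apart for Cd93 at 92.1 against 39.28 CPM (0.884), for Clu at 22.48 against 10.69 CPM (0.742) and for Cd59a at 4.392 against 1.756 CPM (0.741). Among controls, control 5 was apart for C5ar1 at 93.22 against 48.79 CPM (0.848) and for C5ar2 at 5.647 against 2.421 CPM (0.747). Without ox-LDL 5, the log2 fold change was 6.06 for Cfb, still called, and -0.94 for C3ar1, still not called (edgeR adjusted p = 0.0104). Without ox-LDL 1, Clu was no longer called (2.03, edgeR adjusted p = 0.0120).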

How the results depend on the processing

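All 9 complement genes kept their side of the threshold in each alternative that could test them, 26 for each gene except 25 for Cfb and Serping1, which a filter of at least 10 counts in every library removed. Under that filter 2 of 4 members were called, also with the fold cutoff, together with 4 of the other complement genes and 471 genes past the fold cutoff in all. C1qa changed sign in 1 leave-one-out fit (0.022). Over all genes, 1866 were called: DESeq2 called 3009, removal of the length trend 2873, limma on log2(FPKM + 0.1) 1243, on log2(FPKM + 1) with no filter 1027, leaving out both control 5 and ox-LDL 2 3326, an adjusted p below 0.05 3365, and leaving out single libraries 1262 (control 4) to 3257 (ox-LDL 2). With the fold cutoff, 849 were called, against 386 on log2(FPKM + 1), 356 with no filter and 1635 at an absolute log2 fold change above 1. The other complement genes called were 7, against 2 on log2(FPKM + 1) with no filter, 4 without the 3 libraries in which short genes were high, and 4 (control 4 left out) to 8 (ox-LDL 2 left out) with single libraries removed. Cd59a and Clu each lost their call in 10 alternatives. The median log2 fold change of all genes was 0.0966, and -0.0484 with upper-quartile scaling, -0.092 with library size alone and -0.136 on log2(FPKM + 1), with no change of direction of any called member. The deviations of same-numbered libraries correlated at -0.0393, -0.419, 0.512, -0.378 and 0.424 for replicates 1 to 5. They went together in replicates 3 and 5 and not in the others. Control 5 was the only control that correlated best with its own number. Whether same-numbered libraries shared a source was not tested. With the replicate block 1434 genes, 4 members and 7 other complement genes were called. The cause of these differences was not tested.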

Other observations

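The genes whose within-group deviations most resembled those of 3 members were listed from 7496 candidates over the 10 libraries, as a description. For C1qa they were Fcgr4 (Pearson r = 0.957), an Fc receptor of activated macrophages, Hexa (0.955), a lysosomal hexosaminidase, Rfc2 (0.946) and Selenop (0.945), a selenium transport protein. For C3 they included Gpr157 (0.855), Irf7 (0.820), an interferon regulatory factor, and Retreg1 (0.807). For C5ar1 they were Slc36a1 (0.951), Kctd17 (0.945), Sort1 (0.939), a sorting receptor, and Phf21a (0.938). Libraries share depth and composition, and C1qa in particular moved with the length trend (-0.862), so these values say nothing of shared control. Of the genes named, Irf7 rose (log2 fold change 4.54, edgeR adjusted p = 6.51e-04) and Selenop fell (-2.93, edgeR adjusted p = 0.00390), whereas the others did not pass the test.

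Control 5 had the most C3 counts of the controls, 460, equal to 10.8% of the 4268 in ox-LDL 5. It also had the most Serping1 counts of the controls, 22, equal to 16.2% of the 136 in ox-LDL 5. Its 7 Cfb counts were 0.352% of the 1988 in ox-LDL 5.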
